A study of Mus musculus with 2 samples.

Results

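The genes described here are 43 mouse genes of mitosis: cyclins and kinases that drive cells into division, the proteins of centromeres and kinetochores, the spindle checkpoint, mitotic kinesins and spindle proteins. They were taken from a list of gene symbols and matched to array probes through the RefSeq accessions the scanner files give. All 43 were found among 20433 named genes on the array, and each of the 43 was measured, meaning well above background in at least 1 sample, as were 14273 genes overall. The arrays came from 2 stable lines of ATDC5, a mouse cell line labelled as chondrocytes, the cells of cartilage. Lentiviral transduction had made 1 line that overexpressed GFP, a fluorescent protein, and 1 line that overexpressed HES1, a repressor of transcription that acts downstream of Notch receptors. RNA had been taken from each line after 3 days of monolayer growth on 60 mm dishes and hybridised to 1 single-colour array. The GFP line served as the control, and both lines share the ATDC5 parent and a lentiviral insertion.

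There was 1 array per group, so no difference below has a replicate check and none was tested. A gene is called lower or higher where its signals differed at least 2-fold. Differences are log2 values, the sample labelled HES1 minus the GFP sample, so that -1 is a halving. Each carries a technical error from the scanner software's error model, which leaves out differences between cultures. Signals are in scanner units, with the 75th percentile of each array set to 1057.2, and can be set against each other for 1 probe but not between genes. The arrays were alike in detection, with 54.6% of spots (GFP) and 56.6% (HES1) well above background, and 8 detected spike-in controls differed by -0.083 to 0.097. The array's mouse Hes1 probe stayed at background in both samples (10.2 and 10.3), so it checked neither label. Of 16 chondrocyte markers, 12 were well above background in each sample, Col2a1 (13796 and 7379) and Sox9 (3683 and 3227) among them, while Matn1, Matn3 and Hapln1 stayed at background, Col9a3 went the other way (25.2, at background, and 270; at least 7.07-fold higher), and the list summed to 55532 and 44717. Of 9 macrophage and leukocyte markers on the array, 4 were above background in the GFP sample and 5 in the other, and Lyz2, Tyrobp and Laptm5 were in neither. Summed signals of the macrophage and leukocyte list were 50493 and 25643, nearly all of it from the brightest of 3 Itgam probes (47669 and 22759, -1.07); the median of those probes turned to 0.25. The osteoblast list summed to 16921 and 9000, mostly from Alpl (12365 and 6940). All 6 of its measured genes were below 0 and 3 were at least 2-fold lower, with a median of -1.02, Ibsp at -1.66 and Sp7 at -1.41. Endothelial, adipocyte and muscle lists had 2, 2 and 1 markers above background in each sample, with sums of 8576 and 8925, 3166 and 3729, and 1092 and 957. Nearly all of the endothelial sum came from the brighter of 2 Kdr probes (8354 and 8691, 0.057), and the median of those probes was 2.77. The part of these markers in the results was not tested.

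Mitosis separates the copied chromosomes. Cyclin-dependent kinase 1 bound to A- and B-type cyclins starts it, microtubules of the spindle grip each chromosome at its kinetochore, and a checkpoint holds the cell until every kinetochore is attached. The anaphase-promoting complex then tags securin and cyclin B for destruction, and the cell divides. Many of these genes are transcribed late in the cell cycle and nearly silent in resting cells, so their messages serve as markers of dividing cells.

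All 43 genes had a lower signal in the sample labelled HES1 than in the GFP sample. Of them, 38 were at least 2-fold lower, 0 were at least 2-fold higher and 5 lay within 2-fold. Across all measured genes, 4.95% were at least 2-fold lower, 11.1% were at least 2-fold higher, and 55.0% were below 0. The median of the 43 was -1.33, a 2.52-fold lower signal, with a middle range from -1.54 to -1.11, and -1.31 with Cenpf at its bound, while the median of all measured genes was -0.063. With the arrays scaled on reference genes, 30 of the 43 were at least 2-fold lower against 3.04% of all genes. Such scaling shifts every gene by the same amount, so the members' distance of 1.27 log2 units from the median of all genes was fixed. That scaling moved the median of all genes by 0.18, and the split of all genes from 707 lower and 1582 higher to 434 lower and 1895 higher. The cell cultures were measured in bulk, so fewer dividing cells and less RNA of these genes per dividing cell cannot be told apart.

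The signal in the GFP sample ran from 91.4 to 80498 over the members, with a median of 9457, and in the other sample from 16.2 to 30774, with a median of 4090. All but Cenpf were well above background in both samples. Of those 42 genes, 37 were at least 2-fold lower and 0 higher, against 4.41% lower and 7.04% higher among the 13073 genes seen on both arrays. The technical error was 0.20 for the median member, and 42 of 43 differences were larger than 2 technical errors. After 2 technical errors were added back, 17 members were still at least 2-fold lower. The counts of 42 and 17 were not made over all genes, whose median technical error was also 0.20, so they do not set the members apart. The threshold itself lay inside the spread of the list: 13 members lay within 1 technical error of it. Kif20b and Foxm1, both at -1.07, were the members just past it, and Cks2 at -0.97 was just short of it.

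**Figure D1:**
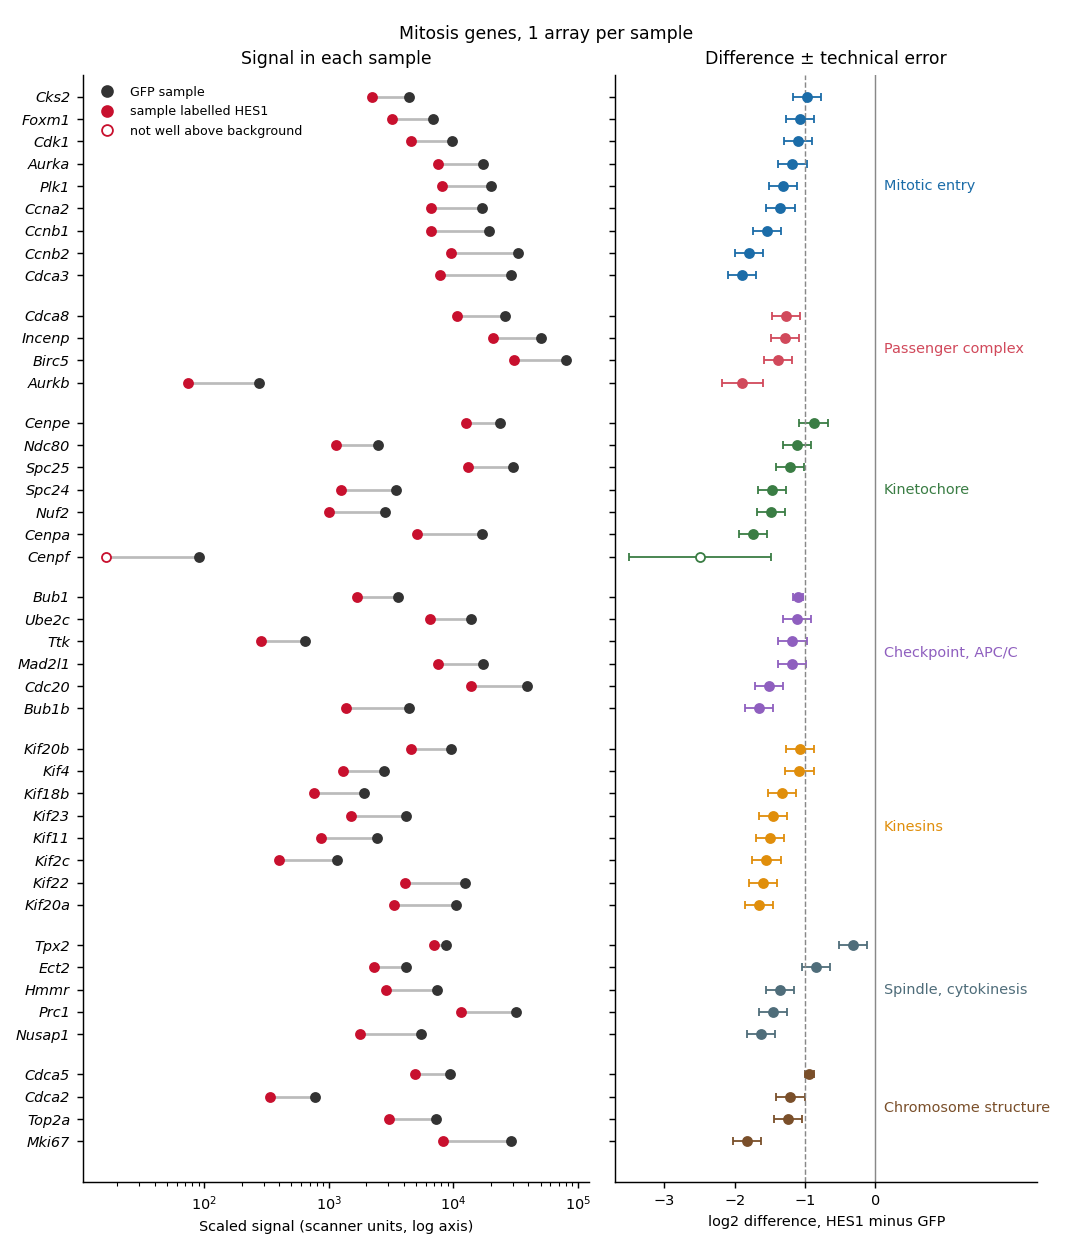
Left, scaled signal of each of the 43 mitosis genes in scanner units on a log axis, in the GFP sample (black) and the sample labelled HES1 (red, open where at background). Right, the log2 difference with its technical error, by role, with a dashed line at 2-fold; every point lies below 0, from -2.50 for Cenpf to -0.32 for Tpx2.

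Genes of G2 and mitosis often share 2 short promoter motifs. CCAAT boxes bind the factor NF-Y, and the cell cycle genes homology region, or CHR, binds the MuvB complex, which works with repressors in resting cells and with activators in G2. The letters TTTGAA and TTCGAA (CHR) and CCAAT were searched on both strands of RefSeq promoter windows of GRCm38.p6, each 300 bases long, from 250 before to 50 after the start. A window was found for 35 of the 43 members, with 37 windows in all. Ccna2, Aurkb, Kif20a, Tpx2, Foxm1, Incenp, Spc24 and Cdca2 were not among them. At least 1 CHR match stood in 30 of the 37 windows (81.1%), against 19.2% of all 32851 windows and 14.3% of the windows of measured genes. CCAAT matched in 29 (78.4%), against 37.4% of all windows, and at least 2 CCAAT matches stood in 22 (59.5%), against 11.7%. Both motifs shared a window in 26 cases (70.3%), against 7.52% of all windows. A CHR match starting within 100 bases of the start was found in 29 windows of members, against 8.59% of all windows. The longer form with GGCGG 4 to 6 bases before TTTGAA was found in 2 members, Cenpf and Cdca5. It stood in 2 of the 37 windows of members (5.41%), against 23 of all 32851 windows. These matches describe letters and are not shown to be sites.

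Promoters of 7 members are shown as examples: 5 hold both motifs, 1 holds CHR alone and 1 holds neither. CHR and CCAAT letters are in capitals, and the gene's own strand is printed 5′ to 3′. Ccnb2 (chr9:70421505-70421804, minus strand), Cdca3 (chr6:124829926-124830225, plus), Mki67 (chr7:135716330-135716629, minus) and Cdc20 (chr4:118437294-118437593, minus) hold TTTGAA with CCAAT, and are 2.84-fold to 3.73-fold lower. Bub1 (chr2:127831810-127832109, minus) holds the TTCGAA form, Cdca5 (chr19:6084847-6085146, plus) holds TTTGAA without CCAAT, and Nusap1 (chr2:119618048-119618347, plus) holds neither.
Ccnb2: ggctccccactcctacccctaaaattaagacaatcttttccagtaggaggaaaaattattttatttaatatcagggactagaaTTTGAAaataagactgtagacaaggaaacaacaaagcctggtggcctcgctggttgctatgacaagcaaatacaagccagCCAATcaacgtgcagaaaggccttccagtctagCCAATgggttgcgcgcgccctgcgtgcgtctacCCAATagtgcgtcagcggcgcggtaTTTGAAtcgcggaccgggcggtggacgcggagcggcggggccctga
Cdca3: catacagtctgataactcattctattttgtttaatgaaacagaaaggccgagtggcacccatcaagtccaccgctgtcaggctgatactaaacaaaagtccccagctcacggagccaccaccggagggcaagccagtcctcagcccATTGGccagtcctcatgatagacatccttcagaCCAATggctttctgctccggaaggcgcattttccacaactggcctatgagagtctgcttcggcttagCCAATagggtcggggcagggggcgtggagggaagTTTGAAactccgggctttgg
Mki67: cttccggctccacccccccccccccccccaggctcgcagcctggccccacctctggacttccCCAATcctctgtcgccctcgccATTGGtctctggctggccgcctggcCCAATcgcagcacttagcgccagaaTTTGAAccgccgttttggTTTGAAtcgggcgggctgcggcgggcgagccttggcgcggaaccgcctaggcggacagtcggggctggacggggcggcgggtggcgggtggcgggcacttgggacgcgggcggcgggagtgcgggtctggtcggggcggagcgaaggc
Cdc20: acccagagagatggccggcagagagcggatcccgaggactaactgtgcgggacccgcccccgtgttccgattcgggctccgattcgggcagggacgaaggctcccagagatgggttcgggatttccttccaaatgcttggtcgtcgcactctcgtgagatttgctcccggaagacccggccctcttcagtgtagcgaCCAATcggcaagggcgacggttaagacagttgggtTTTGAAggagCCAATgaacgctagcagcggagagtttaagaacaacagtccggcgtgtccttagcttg
Bub1: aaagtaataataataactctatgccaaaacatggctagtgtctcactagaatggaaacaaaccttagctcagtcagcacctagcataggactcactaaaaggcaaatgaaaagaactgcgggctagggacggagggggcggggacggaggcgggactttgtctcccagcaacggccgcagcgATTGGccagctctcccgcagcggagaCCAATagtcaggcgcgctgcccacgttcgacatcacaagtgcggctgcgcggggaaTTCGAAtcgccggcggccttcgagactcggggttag
Cdca5: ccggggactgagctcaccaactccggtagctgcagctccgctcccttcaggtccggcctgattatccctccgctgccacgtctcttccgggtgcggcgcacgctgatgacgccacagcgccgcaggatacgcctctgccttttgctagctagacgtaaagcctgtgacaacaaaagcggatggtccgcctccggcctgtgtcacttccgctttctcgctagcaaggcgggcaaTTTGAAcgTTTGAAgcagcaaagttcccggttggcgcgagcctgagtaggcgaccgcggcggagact
Nusap1: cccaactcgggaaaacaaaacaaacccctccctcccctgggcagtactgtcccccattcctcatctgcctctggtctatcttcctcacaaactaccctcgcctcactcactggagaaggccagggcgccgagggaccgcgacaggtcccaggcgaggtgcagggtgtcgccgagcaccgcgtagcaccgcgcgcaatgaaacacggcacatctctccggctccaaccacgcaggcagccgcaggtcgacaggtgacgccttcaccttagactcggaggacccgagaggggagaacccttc
The 3 CCAAT boxes of Ccnb2 stand 33 bases apart, beginning 87, 54 and 21 bases before the start, and a TTTGAA follows at base 5 after the start. In Cdca3 the pair of boxes farthest upstream also stands 33 bases apart, at 104 and 71 bases before the start, and the outer one reads on the opposite strand. Mki67 has TTTGAA at 116 and 98 bases before the start, downstream of its 3 boxes.

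The size of the differences was set beside these letters as a description. The 28 members with a CHR match in a window had a median difference of -1.32, and the 7 without one had a median of -1.39. Nusap1, with neither motif, went from 5490 to 1772 (3.10-fold lower), while Ect2, with both, went from 4148 to 2322 and stayed within 2-fold. Members with both motifs in a window had a median of -1.35 (24 genes), and the other 11 had a median of -1.19. The ranges overlapped, from -2.50 to -0.84 with both motifs and from -1.63 to -0.88 without.

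Of the 9 genes of mitotic entry, 8 were at least 2-fold lower, with a median of -1.31. Cdk1, the kinase at the centre of mitotic entry, went from 9801 to 4584 (2.14-fold lower). Its cyclin partners had larger differences: Ccna2 went from 16852 to 6606 (2.55-fold), Ccnb1 from 19231 to 6614 (2.91-fold) and Ccnb2 from 32996 to 9493 (3.48-fold). Cdca3, a trigger of the destruction of the inhibitory kinase Wee1, went from 28966 to 7760, or 3.73-fold lower. That was close to Aurkb (3.71-fold), and the order of the pair turned under quantile and loess scaling. Plk1 and Aurka, kinases of centrosome maturation and the spindle poles, were 2.48-fold and 2.27-fold lower. Foxm1, a transcription factor that activates many G2 genes, went from 6810 to 3240, at -1.07. Cks2, a small subunit that binds Cdk1, went from 4396 to 2237, at -0.97, and was the gene of this group that stayed within 2-fold. Under scaling on reference genes Cdk1 and Foxm1 also fell short of 2-fold, at -0.92 and -0.89.

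The chromosomal passenger complex corrects faulty attachments of chromosomes and guides the last step of division. All 4 of its subunits were at least 2-fold lower, and in scaled signal they lay between 2.41-fold and 3.71-fold. Birc5, which encodes survivin, went from 80498 to 30774, and its 3 probes gave -1.39, -1.44 and -1.44. Incenp, the scaffold, went from 50648 to 20665, and Cdca8, which encodes borealin, from 25779 to 10687. Aurkb, the kinase of the complex, had a dimmer probe, at 274 against 73.8, with a technical error of 0.29 on its difference of -1.89. That difference was -1.16 under a normexp background correction, which here came with median spot signals, an offset of 50 and quantile normalization.

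Kinetochore genes had a median of -1.47 over 7 genes, or -1.23 with Cenpf at its bound, and 6 were at least 2-fold lower. The NDC80 complex is the rod that binds microtubules, and its 4 subunits were lower together: Nuf2 went from 2798 to 998, Spc24 from 3476 to 1251, Spc25 from 30209 to 13073 and Ndc80 from 2468 to 1139. Their folds ran from 2.17-fold for Ndc80 to 2.80-fold for Nuf2, and Ndc80 was at -0.94 under scaling on reference genes. Cenpa, the histone variant that marks the centromere, went from 17046 to 5107 (3.34-fold lower). Cenpe, a kinesin at the outer kinetochore, was at 23438 against 12699, a difference of -0.88 that stayed within 2-fold. Cenpf, a large protein of the kinetochore's fibrous corona, was dim: its probe read 91.4 in the GFP sample and, in the other, 16.2, which was not well above background. It was at least 2.34-fold lower, and its measured -2.50 carried a technical error of 1.01 and became -0.54 under normexp.

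Spindle checkpoint genes and regulators of the anaphase-promoting complex were all at least 2-fold lower, 6 of 6, with a median of -1.18. Bub1b, which encodes the checkpoint protein BubR1, had the largest difference, 4367 against 1383. Bub1, a checkpoint kinase, was read by 9 kept spots, which ran from 3394 to 3719 in the GFP sample and from 1565 to 1743 in the other. Those ranges did not overlap, and all 9 spot positions were at least 2-fold lower, with a mean of -1.10 and an SD between positions of 0.043. The spots repeat the same probe on the same arrays, so they show technical spread and not differences between cultures. Overlap was not counted over the other replicated probes. Mad2l1, the checkpoint protein that holds Cdc20, went from 17219 to 7563, and Ttk, the kinase Mps1, from 643 to 284. Cdc20, the activator of the anaphase-promoting complex in mitosis, went from 39187 to 13782 (2.84-fold lower). Ube2c, the enzyme that supplies it with ubiquitin, went from 13925 to 6453, and its second probe gave -1.05. Bub1 and Ube2c were at -0.92 and -0.93 under scaling on reference genes, and Ttk at -0.86 under normexp.

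Kinesins are motors that move along microtubules. The 8 members with a Kif symbol were at least 2-fold lower, with a median of -1.48, while Cenpe, a kinesin described with the kinetochore, was not. Kif20a, a motor of cytokinesis, went from 10530 to 3324 (3.17-fold lower). Kif22, which pushes chromosome arms outward, went from 12375 to 4090 (3.03-fold). Kif2c, which takes microtubules apart at centromeres, went from 1158 to 396, and its other probe gave -1.60 against -1.55. Kif11, the motor that pushes the spindle poles apart, went from 2441 to 864, and Kif23, a subunit of centralspindlin, from 4148 to 1508. Kif18b, which shortens astral microtubules, went from 1914 to 760. The smallest differences were those of Kif4, a chromosome-bound motor, at 2751 against 1300, and Kif20b, at 9623 against 4598. Kif4 was at -0.90 and Kif20b at -0.88 under scaling on reference genes, and Kif4 has an annotated pseudogene whose own probe stayed at background.

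Among 5 genes of the spindle and of cytokinesis, 3 were at least 2-fold lower and 2 were not. Nusap1 and Prc1, which bundle microtubules, were 3.10-fold and 2.76-fold lower, Prc1 going from 31935 to 11576. Hmmr, a spindle protein first named as a receptor for hyaluronan, went from 7404 to 2893. Ect2, the exchange factor that starts the cleavage furrow, was at -0.84. Tpx2 stood apart from every other member: it went from 8758 to 7037, a difference of -0.32 with a technical error of 0.20, and the next smallest difference was that of Ect2. TPX2 protein activates the kinase Aurora A, whose gene Aurka was 2.27-fold lower. A second Tpx2 probe, listed under another RefSeq transcript, went from 271 to 213, at -0.35.

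Of 4 genes of chromosome structure, 3 were at least 2-fold lower. Mki67, which encodes the Ki-67 protein that coats mitotic chromosomes, went from 29151 to 8203 by 1 probe and from 23558 to 6691 by the other, at -1.83 and -1.82. Top2a, the enzyme that untangles sister chromatids, went from 7209 to 3063, and Cdca2, which targets a phosphatase to chromosomes, from 779 to 337. Cdca2 was at -0.97 under normexp. Cdca5, which encodes sororin, a protector of cohesion between sisters, had 9 kept spots. They ran from 8947 to 9764 in the GFP sample and from 4644 to 5150 in the other, without overlap. Its difference was -0.94 with an SD of 0.059 between spot positions, and 0 of the 9 positions reached 2-fold. As for Bub1, these spots show technical spread only.

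Where members were read by more than 1 probe, the probes gave like values. There were 16 such extra probes for 12 members, all 16 lower in the sample labelled HES1. For the 14 with both signals well above background, the gap to the brightest probe had a median size of 0.059 and at most 0.26, for Ccnb1. A second Nuf2 probe read 206 and 48.8, the latter not well above background, and gave a measured 4.21-fold lower signal, with a technical error of 0.39. Cdk1 had a second probe well above background in both samples (718 and 387), at -0.89 and so short of 2-fold. It also had a dim one (94.1 and 41.8, the latter not well above background) with a measured 2.25-fold lower signal and a technical error of 0.41. Taken as the median over its probes, Nuf2 was at -1.78.

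**Figure D2:**
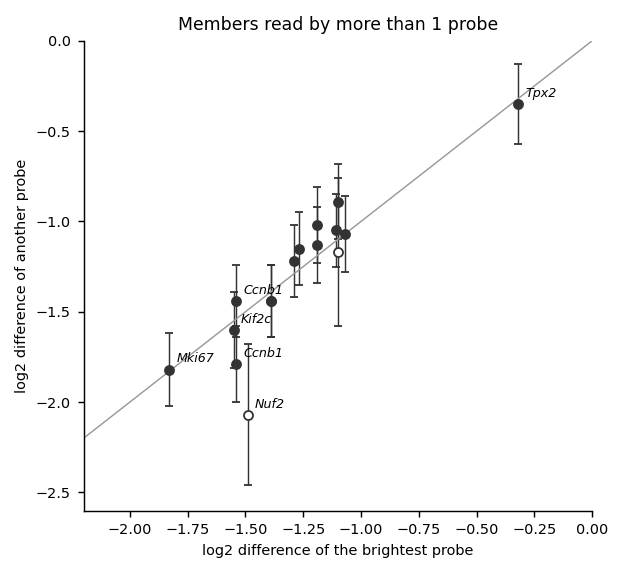
Log2 difference of each extra probe (vertical, with its technical error) against that of the brightest probe of the same gene, for the 12 members with more than 1 probe; open points were at background in the sample labelled HES1. The 14 filled points lie within 0.26 of the line of equal values.

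Members were 43 of the 14273 measured genes, and 38 of the 707 genes that were at least 2-fold lower (5.37%). At 3-fold, 10 of the 43 members were lower (23.3%), against 1.25% of all genes, and at 1.5-fold 42 were lower against 14.6%. Counted from the largest negative difference, Cdca3 was number 39 of the 13073 genes well above background on both arrays. Among all 14273 measured genes it was number 97, and the dim Cenpf was number 44. The SD of the members' differences was 0.36, against 1.11 for all measured genes. The middle ranges differed less in width, from -1.54 to -1.11 for members and from -0.38 to 0.33 for all measured genes.

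**Figure D3:**
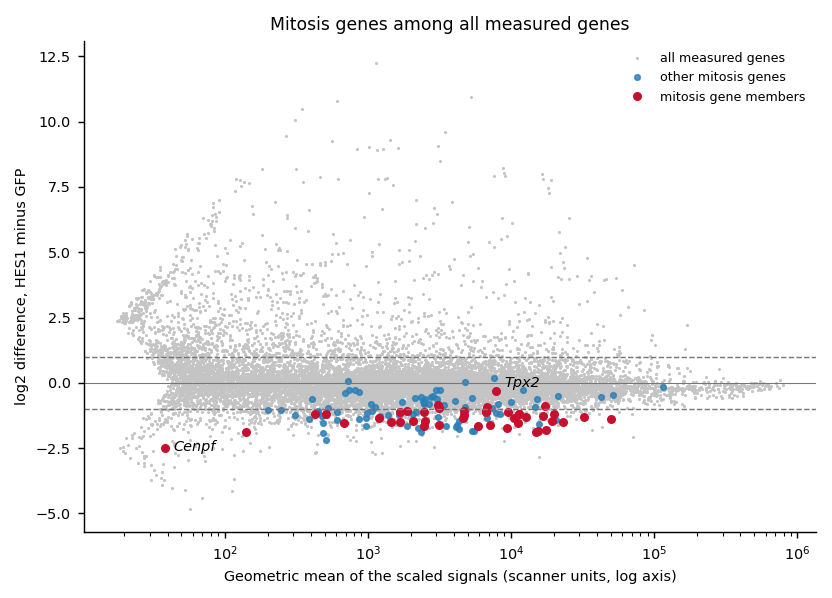
Log2 difference of each measured gene against the geometric mean of its scaled signals (scanner units, log axis), with the 43 members in red, the other mitosis genes in blue and dashed lines at 2-fold. Members form a band below 0 across the signal range, with Tpx2 at -0.32 above it and the dim Cenpf at -2.50 below it.

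A second list held 83 other genes of mitosis that are not members, of which 80 were measured. In it, 42 were at least 2-fold lower (52.5%), 0 were higher, and 77 were below 0 (96.2%), with a median of -1.06. Over all measured genes these shares were 4.95% lower, 11.1% higher and 55.0% below 0. Under the normexp correction and under scaling on reference genes 30 were lower, against 2.38% and 3.04% of all measured genes. The largest differences were those of Psrc1, a regulator of microtubule growth (1090 against 239, 4.57-fold lower), Cit, the citron kinase of cytokinesis (948 against 253), Depdc1b (4517 against 1238) and Fam64a, now called Pimreg (10486 against 2891). Other large ones, named after their values were seen, were Ccnf at -1.75, Espl1, the protease separase, at -1.72, and Cdc25b, a phosphatase that activates Cdk1, at -1.68. Members and these genes, 43 and 80 of the 14273 measured genes, were together 80 of the 707 genes that were lower (11.3%).

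Complexes of mitosis differed in how far their genes were lower, in groupings made after the values were seen. For comparison, 4.95% of all measured genes were at least 2-fold lower and 55.0% were below 0. Of the inner kinetochore's constitutive centromere genes, 3 of 14 were at least 2-fold lower (Cenpm, Cenpi and Cenpl), with a median of -0.79 and all 14 below 0. Under scaling on reference genes Cenpl was at -0.95 and Cenpi just short of 2-fold, which left Cenpm past it. None of the 4 MIS12 complex genes, which link the centromere to the NDC80 rod, was 2-fold lower, and they ran from -0.60 for Nsl1 to 0.079 for Mis12. Bub3 and Mad1l1, partners of the checkpoint members, were at -0.29 and 0.19. Condensin I, which compacts chromosomes after the nuclear envelope opens, had all 3 of its own subunits at least 2-fold lower: Ncapd2 at -1.58, Ncaph at -1.18 and Ncapg at -1.04. Ncapg was at -0.77 under normexp. Condensin II had 1 of 3, Ncapg2 at -1.10 (-0.92 under scaling on reference genes, which left 0 of 3), and the shared ATPases Smc2 and Smc4 were at -0.97 and -0.52.

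The core of the anaphase-promoting complex is not among the members. Of its 13 subunits, 12 had a measured difference within 2-fold, with a median of -0.15. Anapc10 was dim (54.7, and 13.4 below background) and at least 1.40-fold lower, so by bounds 0 of 13 reached 2-fold. Anapc5 at -0.81 and Anapc11 at -0.63 were the lowest of the others, and the activator Fzr1 was at -0.66. The inhibitor Fbxo5 and the ubiquitin enzyme Ube2s were both at -0.96, close to the threshold, beside the members Cdc20 and Ube2c past it. Cohesin, the ring that holds sister chromatids, had 1 of 12 genes lower (8.33%, against 4.95% of all measured genes) and a median of -0.25. The lower one was the acetyltransferase Esco2 at -1.52 (-0.96 under normexp).

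Genes of DNA replication had smaller differences than the members. Of the 45 measured, 4 reached a 2-fold lower signal (8.89%, against 4.95% of all measured genes), and the median of the list was -0.44. The lower ones were E2f8 (-1.61) and E2f7 (-1.33), repressors of the E2F family, the nucleotide enzyme Tk1 (-1.19) and Rrm2, a subunit of ribonucleotide reductase (-1.19). E2f7 was at -0.54 as the median of its 2 probes. The 6 genes of the replicative helicase, Mcm2 to Mcm7, had a median of -0.24 and Pcna, the sliding clamp, a difference of -0.13. Reference genes had a median of -0.18 over 16 genes, with Actb at -0.27 and Gapdh at -0.11 and 0 past 2-fold.

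**Figure D4:**
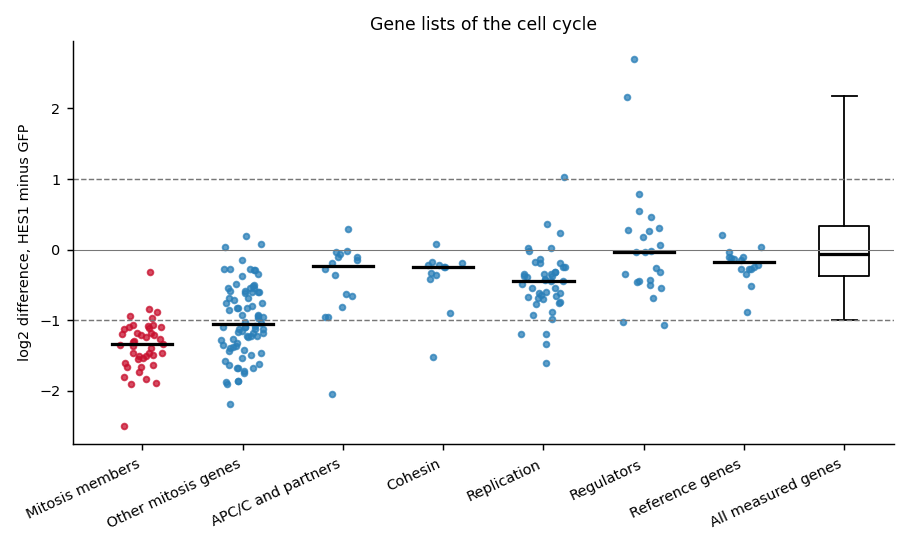
Log2 differences of the genes of each list, 1 point a gene, with black bars at the medians; the box on the right gives the middle 50% of all measured genes with whiskers at the 5th and 95th percentiles, and dashed lines mark 2-fold. Medians run from -1.33 for the members and -1.06 for other mitosis genes to -0.44 for replication and -0.18 for reference genes.

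Factors that act on mitotic promoters were mostly within 2-fold. The 5 MuvB core genes ran from -0.26 for Rbbp4 to 0.46 for Lin52, with Lin54, the subunit that binds the CHR, at 0.27 (2795 against 3373). Taken as the median over their probes, Rbbp4 was at -0.79 and Lin52 at 0.88. The NF-Y subunits Nfya, Nfyb and Nfyc were at -0.34, -0.32 and 0.065. Mybl2, the activator that joins MuvB in S phase, was at -0.46. Of the pocket proteins that join MuvB in resting cells, Rbl1 was at 0.18 (-0.13 as the median of its 2 probes). Rbl2 was at -1.03 (667 against 326), which was -0.71 under normexp. E2f4 was at 0.30 and the p53 gene Trp53 at 0.28. The list of 24, which includes Foxm1, had 2 genes lower (8.33%) and 2 higher, against 4.95% and 11.1% of all measured genes. Its median was -0.035, which turned positive, from 0.077 to 0.15, under scaling on shared probes, on reference genes or by loess. Under those settings and normexp 0 of the 24 were at least 2-fold lower. The higher ones were Cdkn1a, the gene of the inhibitor p21 (315 against 1412), and Ccnd2, a D-type cyclin of G1 (1241 against 8052). Ccnd1 was at 0.79.

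The other kinesins of the array were set beside the 8 members, in a grouping made after the values were seen. Of 37 measured genes with a kinesin symbol, 12 were at least 2-fold lower (32.4%, against 4.95% of all genes) and 3 higher (3 of 37, against 11.1% of all genes). That share of lower genes includes the 8 members, and without them 4 of 29 were lower (13.8%). The 12 were the 8 members and Kifc1, Kif15 and Kif18a, which also act in mitosis, with Kifc5b, a near copy of Kifc1 that probes may not tell apart. With the members, Kifc1, Kif15 and Kif18a left out, 1 of 26 was lower (3.85%, against 4.95% of all genes). Kif15 was at -1.22 and Kif18a at -1.12, and both fell short of 2-fold under normexp, at -0.90 and -0.88. Several kinesins of intracellular transport were close to 0: Kif3a and Kif3b, subunits of the ciliary motor kinesin-2, were at 0.041 and 0.0037, Kif1b at -0.25 and Kif5b, the widely expressed heavy chain of conventional kinesin, at 0.29. Other kinesins within 2-fold lay farther from 0, among them Kif1c at -0.86 (5603 against 3083), Kif13a at -0.39 and Kif26b at 0.94. The 3 that were higher were Kif5c, Kif5a and Kif1a. Kif5c went from 2329 to 9917 (4.26-fold higher), Kif5a from 236 to 511 (2.17-fold), and Kif1a, at background in the GFP sample (35.4), was at least 5.17-fold higher (197). Under normexp Kif5a and Kif1a were at 0.79 and 0.77.

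**Figure D5:**
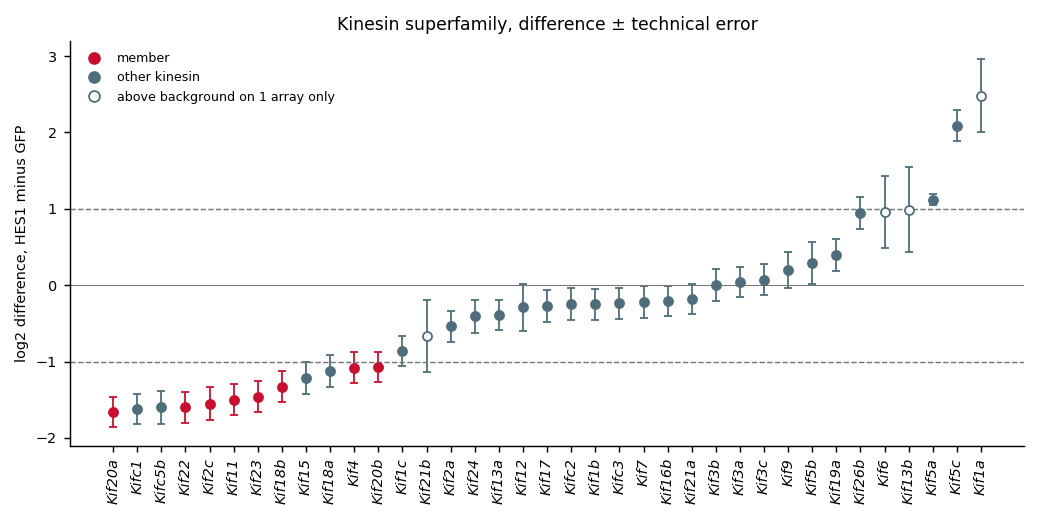
Log2 difference with technical error for the 37 measured kinesin genes in order of the difference, with the 8 members in red, other kinesins in grey and open points for genes above background on 1 array only. The 12 genes below the lower dashed line, at 2-fold, include all 8 members; Kif5a, Kif5c and Kif1a lie above the upper one.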

How the data were processed

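Each sample was hybridised to a 1-colour Agilent mouse array annotated on mm9. Scans were read with Feature Extraction 10.10.1.1, as the submitters' processing notes and the deposited headers give it. The deposited scanner files hold an intensity per spot, background-subtracted and detrended within the array, per the file headers. The authors' deposited value table is that intensity times 1.45 (GFP) or 1.53 (HES1), with medians of 67.7 and 76.6; it is linear and uncentred. Both arrays lay on 1 slide.

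Processed signals were put on a log2 scale and each array's 75th percentile, over 59305 non-control spots, was subtracted. Spots with an outlier flag (1053) were left out, none was saturated, and spots of a probe were averaged (54948 probes). Accessions were named through RefSeq (GRCm38.p6); 26869 probes had 1 symbol, 0 several and 28079 none. A gene was its brightest probe well above background on at least 1 array. Where 1 array was dim, a fold is a bound, against the higher of the dim signal and the lowest signal above background there (38.1 for GFP, 39.0 for HES1). If the dim signal was the higher, the fold is the measured ratio and not a bound. The number of arrays limits the precision; 235 probes with at least 8 spots had a median SD between spots of 0.068.

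The members and lists were chosen with earlier results of these data known. Every member is given; of each other list up to 4 genes past 2-fold, and a fixed set, were named, and others are marked as named after their values were seen. 1 gene of another list is not reported here. The calculation was tested on simulated data. Alternatives were quantile, shared-probe, reference-gene and loess (span 0.3) scaling, normexp (offset 50) on median signals with quantile normalization, the deposited table, a stricter and no filter on dim probes, a gene's median probe, no removal of outlier spots, removal of saturated ones, and calls at 1.5-fold or 3-fold. R 4.3.3 with limma 3.58.1 and Python 3.11.15 were used.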

Additional observations from a re-analysis of the deposited data

How the results depend on the processing

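The count of 38 members at least 2-fold lower ran from 30 (scaling on reference genes) to 38 over 11 alternatives, with 31 after loess, 32 under shared-probe scaling and under normexp, and 0 members higher under any of the 11. The share of all measured genes that were lower moved too, from 4.95% in the main setting. It was 3.64% after loess and under shared-probe scaling, 3.04% with reference genes and 2.38% under normexp. The median of the members ran from -1.33 to -1.15. At a threshold of 3-fold 10 members were lower (1.25% of all genes) and at 1.5-fold 42 (14.6% of all genes). Of the 38, 28 stayed at least 2-fold lower under every alternative that gave them a value, and 10 did not under at least 1: Cdk1, Bub1, Cenpf, Kif4, Kif20b, Foxm1, Ttk, Ndc80, Cdca2 and Ube2c. All 472 values of single members under the alternatives were below 0, but the 11 settings are not separate checks. No spot was saturated, and the deposited table is the same intensity times a constant for each array. A gene's median probe could change only the 12 members with more than 1 probe. Normexp, run together with median spot signals and quantile normalization, moved Cenpf, Aurkb, Kif2c, Ttk, Cdca2 and Bub1 by more than their technical error; the cause was not tested. Shared-probe, loess and reference-gene scaling moved the median of all genes by 0.11, 0.14 and 0.18. Shared-probe and reference-gene scaling shift every gene alike, so the members' distance from that median was fixed at -1.27. Under the other alternatives that distance ran from -1.34 without a filter on dim probes to -1.15 under normexp, with -1.26 after loess. No paired analysis was possible because each group held 1 array. With 1 array a line, differences between the lines and between any other pair of cultures cannot be told apart.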

Other observations

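The motifs shared by the members were also looked up for all measured genes with a promoter window, as a description made after the members' values were seen. Of 799 genes with CHR and CCAAT letters in 1 window, 77 were at least 2-fold lower (9.64%), against 4.54% of 5534 genes with neither. Without the members and the other mitosis genes, 38 of 749 were lower (5.07%), against 4.37% of 5516 with neither and 4.48% of all 11270. Of the same 749 genes 83 were at least 2-fold higher (11.1%), against 10.7% of the 11270. Outside the mitosis genes, the shares of lower and of higher genes were thus near the background whether or not a window held these letters.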
